A study of Mus musculus with 2 samples.

Results

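The genes described here are 9 genes of interleukin 1 and inflammasome biology, taken by symbol from the 32285 genes listed in both libraries: Il1a, Il1b, Il1rn, Il18, Nlrp3, Pycard, Casp1, Tnf and Ptgs2. All 9 had unique molecular identifiers (UMIs, each standing for 1 captured transcript) in both libraries. The study profiled single cells from the central nervous system of mice by droplet RNA sequencing of transcript 3′ ends, with 1 library per genotype, Cx3cr1-/+ and Cx3cr1+/+. Cx3cr1 encodes the fractalkine receptor of microglia and patrolling monocytes. Recipients in both arms were CD45.1 mice conditioned with busulfan, 4 doses of 25 mg/kg, and transplanted with haematopoietic stem and progenitor cells, and both labels call the cells microglia-like. The same protocol, which describes GFP+ and GFP- lineage-negative cells sorted from Cx3cr1-/+ mice, stands in both labels. The labels give no age, sex, time after transplant or number of pooled animals.

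Interleukin 1 alpha and beta (Il1a, Il1b) are ligands of one receptor, which the antagonist encoded by Il1rn occupies without signalling. Interleukin 1 beta and interleukin 18 are made as precursors and are cut by caspase-1 (Casp1), which becomes active on a platform, the inflammasome, built from the sensor NLRP3 and the adaptor ASC (Pycard). Tnf, a further inflammatory cytokine, and Ptgs2, the inducible cyclooxygenase of prostaglandin synthesis, are induced by many of the same stimuli. In brain the interleukin 1 and inflammasome genes are best known from microglia, border macrophages and infiltrating myeloid cells. Transcript levels say nothing of cleavage or release.

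On the mouse build GRCm38 (GENCODE M21), Il1b lies at chr2:129364570-129371139 and Il1a at chr2:129299610-129309972, both on the minus strand and 54597 bases apart. Il1rn is on the plus strand of the same chromosome, at chr2:24336853-24351494. No other annotated gene overlaps a member on its own strand, and genes on the opposite strand overlap Il1a, Il1b, Il18 and Pycard. Promoter windows of 300 bases, 250 before and 50 after a transcription start, were found in the RefSeq table (build GRCm38.p6) for all 9 genes. Windows of 5 genes are shown because they set the genes highest in one neutrophil-like cluster (Il1b, Il1rn, Nlrp3) beside those highest in one microglia-like cluster (Il1a, Tnf). Capitals mark 3 motifs searched on both strands: TATAAA, the AP-1 motif TGANTCA, and the kappaB consensus. The windows are chr2:129371090-129371389 (minus strand) for Il1b, chr2:129309923-129310222 (minus) for Il1a, chr17:35201958-35202257 (minus) for Tnf, chr2:24336610-24336909 (plus) for the first listed start of Il1rn, and chr11:59541319-59541618 (plus) for the second listed start of Nlrp3. Il1rn has 3 listed starts and Nlrp3 2, and the window shown for each is the one that holds an AP-1 or kappaB match, which the other starts lack.
Il1b: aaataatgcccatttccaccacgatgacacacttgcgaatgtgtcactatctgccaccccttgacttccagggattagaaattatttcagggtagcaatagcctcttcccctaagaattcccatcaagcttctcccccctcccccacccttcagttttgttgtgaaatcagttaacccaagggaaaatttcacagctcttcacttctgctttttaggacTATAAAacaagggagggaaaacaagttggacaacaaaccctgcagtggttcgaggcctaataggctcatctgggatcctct
Il1a: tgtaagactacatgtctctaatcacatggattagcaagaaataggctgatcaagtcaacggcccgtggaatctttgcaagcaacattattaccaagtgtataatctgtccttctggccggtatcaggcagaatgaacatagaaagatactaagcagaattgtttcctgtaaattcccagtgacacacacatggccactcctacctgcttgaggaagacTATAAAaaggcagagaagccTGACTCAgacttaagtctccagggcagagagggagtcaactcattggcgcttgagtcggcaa
Tnf: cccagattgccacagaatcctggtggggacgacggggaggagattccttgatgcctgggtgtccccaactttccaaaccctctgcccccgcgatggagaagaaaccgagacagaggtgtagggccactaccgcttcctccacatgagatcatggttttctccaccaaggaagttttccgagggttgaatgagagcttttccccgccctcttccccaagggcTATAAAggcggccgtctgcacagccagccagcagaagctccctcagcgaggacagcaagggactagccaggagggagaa
Il1rn: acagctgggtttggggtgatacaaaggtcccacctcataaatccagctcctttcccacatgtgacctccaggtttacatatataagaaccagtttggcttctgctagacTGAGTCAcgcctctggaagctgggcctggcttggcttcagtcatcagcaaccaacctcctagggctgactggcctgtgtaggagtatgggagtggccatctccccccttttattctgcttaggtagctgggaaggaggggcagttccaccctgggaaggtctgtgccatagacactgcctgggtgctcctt
Nlrp3: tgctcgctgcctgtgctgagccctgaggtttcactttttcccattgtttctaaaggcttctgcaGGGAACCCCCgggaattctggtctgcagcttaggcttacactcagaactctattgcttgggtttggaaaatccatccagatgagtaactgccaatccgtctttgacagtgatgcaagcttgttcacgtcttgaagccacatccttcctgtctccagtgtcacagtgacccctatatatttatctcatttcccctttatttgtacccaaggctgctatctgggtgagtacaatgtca
TATAAA stood at -31 in Il1b, -32 in Il1a and -29 in Tnf, counted to its first base from the start site. It also stood at -175 in Il18 and at 15 in the third start of Il1rn, and was present in 13.6% of 32851 RefSeq promoter windows. The AP-1 motif stood at -12 in Il1a and at -141 in Il1rn, against 7.81% of all windows. Among the 12 windows of the 9 genes, the kappaB consensus was found in the shown Nlrp3 window alone, at -186, against 8.46% of all windows. The window of Ptgs2, the other gene highest in the neutrophil-like cluster, held none of the 3. These matches describe letters in the windows and not bound sites.

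The libraries held 17828344 and 22062823 UMIs over 1837 and 2359 barcodes, Cx3cr1-/+ first here and below. After filtering, 1489 and 1949 cells remained, with medians of 6880 and 6637 UMIs per cell. Clusters made without the 9 genes were named from marker lists, and 14 of them held at least 20 cells in each library. Only 201 and 301 of the kept cells were microglia-like, although both samples are labelled so throughout. They formed a cluster led by P2ry12, Siglech and Sall1 (92 and 120 cells) and one led by Sparc and Cst3 (109 and 181). The libraries listed 339 barcodes in common, and 255 and 198 of the kept cells carried one. Cells holding Xist UMIs and none of 4 Y-linked genes numbered 1054 and 230, cells with the reverse 36 and 780, and cells with both 4 and 169. Cx3cr1 itself read 2763 and 2849 CPM (a gene's UMIs relative to all UMIs of the cells summed) in the P2ry12-led cluster. It read 775 and 626 CPM in the Sparc-led cluster, 389 and 567 CPM in patrolling monocyte-like cells, and 632 and 727 CPM over all kept cells. No doublets were called, because the caller's threshold lay above every cell's score. Each genotype has a single library, so nothing can be tested over samples. Intervals below are exact 95% intervals that cover counting error only, and a ratio compares 2 libraries, not genotypes.

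The 9 genes fell into separate patterns across clusters. Il1b, Il1rn, Nlrp3 and Ptgs2 were highest in a neutrophil-like cluster led by stefin genes (Stfa1, Stfa2l1, Cstdc4), and Il1a and Tnf were highest in the P2ry12-led microglia-like cluster. Pycard was highest in NK cell-like cells. The highest of the 14 clusters was the same in both libraries for 7 of 9 genes, against 53.3% of 9212 genes with at least 200 UMIs. The stefin-led cluster held the highest level of 4 of 9 members and of 4.06% of those genes, the P2ry12-led cluster of 2 members and 9.62%, and the NK cell-like cluster of 1 member and 4.67%. Casp1 and Il18 had no single highest cluster. With clusters of the same name joined into 11 classes, Il1b and Il1rn stayed highest in neutrophil-like cells and Il1a and Tnf in microglia-like cells. Nlrp3 was highest in classical monocyte-like cells in both libraries. Ptgs2 was highest in classical monocyte-like cells of the Cx3cr1-/+ library and in endothelial-like cells of the Cx3cr1+/+ library. The Nlrp3 and Ptgs2 peaks in the stefin-led cluster (55 and 97 cells) thus did not extend to the neutrophil-like class. Clusters under 20 cells in a library were not ranked, and some lay higher: 14 and 14 mast cell or basophil-like cells read 500 and 202 CPM of Nlrp3 and 352 and 64.9 CPM of Ptgs2, and 7 astrocyte-like cells of the Cx3cr1+/+ library 194 CPM of Il18 from 9 UMIs.

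**Figure D1:**
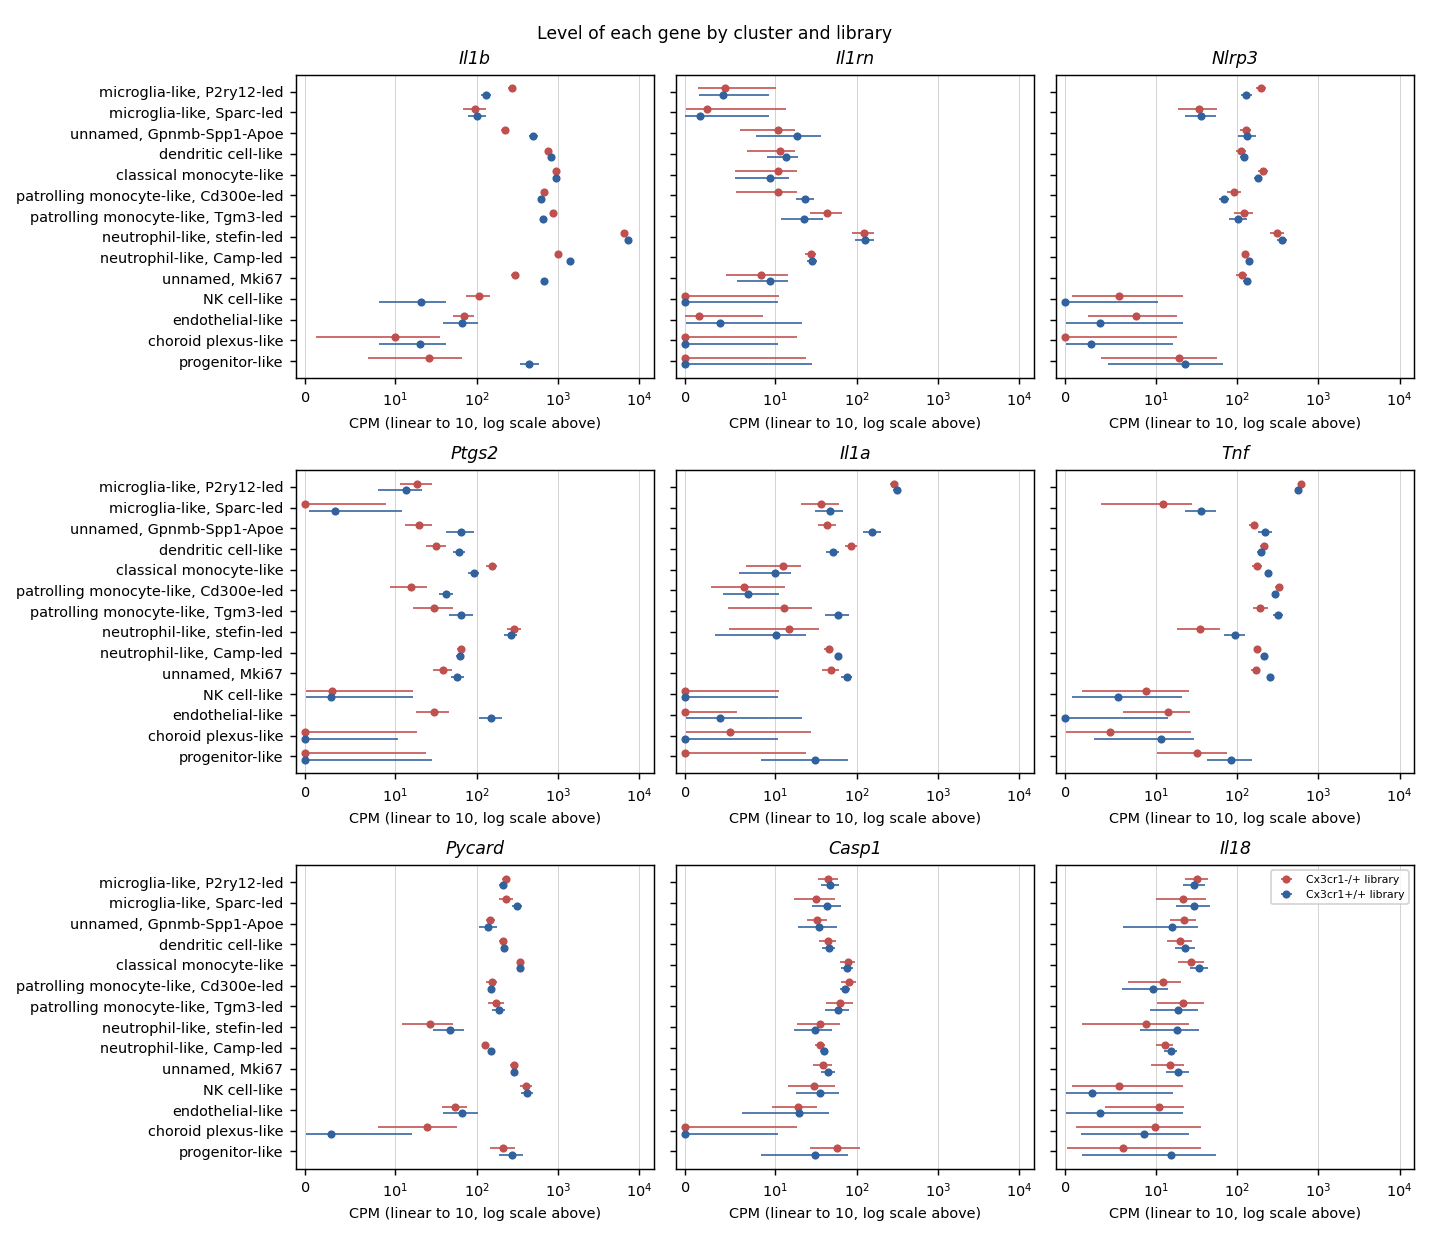
CPM of each gene (x axis, linear to 10 and logarithmic above) in the 14 clusters (y axis) of the Cx3cr1-/+ (red) and Cx3cr1+/+ (blue) libraries, with exact Poisson 95% intervals for counting error. Il1b stands out in the stefin-led neutrophil-like cluster at 6478 and 7201 CPM, and Il1a in the P2ry12-led microglia-like cluster at 286 and 308 CPM.

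Among the ligands, Il1b reached 6478 CPM (interval 6209 to 6756) in the Cx3cr1-/+ library and 7201 CPM (6966 to 7441) in the Cx3cr1+/+ library in the stefin-led cluster. No other cluster exceeded 1396 CPM in either library, so the values did not overlap. After each cell was thinned to 2000 UMIs, 94.3% and 93.0% of stefin-led cells held Il1b. Of choroid plexus-like cells, a type taken here as background, none and 12.1% did. Median depths were 5567 and 4386 UMIs in stefin-led cells and 3507 and 3610 in choroid plexus-like cells. Of the choroid plexus-like cells, 36 of 48 and 36 of 36 carried a barcode listed in both libraries. The second neutrophil-like cluster, led by the granule genes Camp, Ngp and Ltf, read 990 and 1396 CPM. It held 44.4% and 48.3% of all Il1b UMIs, against 33.9% and 35.4% of the UMIs of all genes. Its cells were 16.1% and 17.2% of those kept. At resolution 1 the cluster led by Camp, Ngp and Ltf held 149 and 168 cells. A separate unnamed cluster of 81 and 166 cells was led by Acod1, Asprv1 and Ifitm1, with Il1b among its 10 leading genes. How the Il1b UMIs divide between these was not computed. Il1b in classical monocyte-like cells was level between the libraries at 939 and 941 CPM, followed by dendritic cell-like cells at 746 and 832 CPM. Patrolling monocyte-like cells read 728 and 622 CPM. The P2ry12-led and Sparc-led microglia-like clusters were far lower. They read 275 and 132 CPM, and in the Sparc-led cluster 39 and 61 Il1b UMIs were counted, in 5.13% and 18.3% of thinned cells. In haematopoietic progenitor-like cells 56 of the 58 Il1b UMIs of the Cx3cr1+/+ library lay in 1 cell. Of these progenitor-like cells, 51 of 52 and 39 of 39 carried a barcode listed in both libraries. The stefin-led cells were 3.69% and 4.98% of the kept cells and held 17.0% and 16.3% of all Il1b UMIs, against 1.98% and 2.32% of the UMIs of all genes.

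Il1a had a different order from its neighbour on the chromosome. It read 286 and 308 CPM in the P2ry12-led cluster, where 34.9% and 32.4% of thinned cells held it, and no more than 155 CPM in any other cluster of either library. The stefin-led cluster, the highest for Il1b, held 5 Il1a UMIs in each library (14.8 and 10.1 CPM). NK cell-like cells held no Il1a UMI in either library, which allows up to 8.91 and 8.77 CPM (3 UMIs a library). Across the 28 cluster and library values, Pearson's r of log2 CPM between Il1a and Il1b was 0.29, a description over clusters that share libraries and depth. The genes most like Il1b by the same measure among 8830 were Cd300lf (0.95), Cxcl2 (0.94) and Lilr4b (0.93), and Arhgap22 was most like Il1a (0.92).

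Il18 was low in all 14 ranked clusters, at no more than 34.5 CPM. It read 32.3 and 29.8 CPM in the P2ry12-led cluster and 27.5 and 34.5 CPM in classical monocyte-like cells, and those intervals overlapped. In the stefin-led cluster only 3 and 9 Il18 UMIs were counted. Il18 thus followed another order than Il1b, with r = 0.38 between them over the 28 values.

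The antagonist gene Il1rn read 122 and 125 CPM in the stefin-led cluster. The next highest value among the 14 clusters was 43.0 CPM, in a Tgm3-led cluster of patrolling monocyte-like cells in the Cx3cr1-/+ library. Both microglia-like clusters lay below 5 CPM, with 6 and 7 UMIs in all. Il1rn resembled Il1b across clusters (r = 0.87 over 28 values). The gene most like it was Hcar2 (0.95).

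The inflammasome genes were highest in different clusters. Nlrp3, the sensor, read 308 and 358 CPM in the stefin-led cluster, where 43.4% and 45.3% of thinned cells held it, then 209 and 181 CPM in classical monocyte-like cells and 198 and 131 CPM in the P2ry12-led cluster. The ranges of these last 2 overlapped. In the Sparc-led cluster Nlrp3 was 34.1 and 36.5 CPM. Pycard, the adaptor, ranked 13 of 14 in the cluster where Nlrp3 was highest, at 26.7 and 46.5 CPM in the stefin-led cluster, and read 410 and 415 CPM in NK cell-like cells and 346 and 342 CPM in classical monocyte-like cells. Casp1 was 35.6 and 30.3 CPM in the stefin-led cluster. It was highest, and close to level, in classical monocyte-like cells (77.1 and 75.7 CPM) and the Cd300e-led patrolling monocyte-like cluster (79.7 and 72.4 CPM). Only 9 and 23 Pycard UMIs were counted in the stefin-led cells. Across the 28 values, r with Il1b was 0.87 for Nlrp3, 0.53 for Casp1 and 0.07 for Pycard.

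Tnf read 607 and 558 CPM in the P2ry12-led cluster and 325 and 293 CPM in the Cd300e-led patrolling monocyte-like cluster, and its levels in these did not overlap. In the Sparc-led microglia-like cluster it was 12.2 and 36.5 CPM. The same split was seen in a list of 10 immediate early and heat shock genes, often induced by tissue handling, which summed to 22866 and 24594 CPM in the P2ry12-led cluster and to 1657 and 1731 CPM in the Sparc-led one; its part in the Tnf and Il1a levels was not tested. The 2 clusters also differed in median depth, 8572 against 2680 UMIs. Ptgs2 read 291 and 263 CPM in the stefin-led cluster and 154 and 91.9 CPM in classical monocyte-like cells. Endothelial-like cells read 29.6 and 150 CPM for Ptgs2, and 26 of the 39 UMIs in the Cx3cr1+/+ library came from 1 cell.

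How evenly a transcript was spread over cells also differed. In the stefin-led cluster the 10% of cells with most Il1b held 27.7% and 28.9% of its UMIs. The same 10% held 82.5% and 65.1% in the P2ry12-led cluster and 91.5% and 85.8% in an unnamed cluster led by Spp1, Gpnmb and Apoe. In thinned cells of that unnamed cluster, 11.3% and 28.3% held Il1b.

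**Figure D2:**
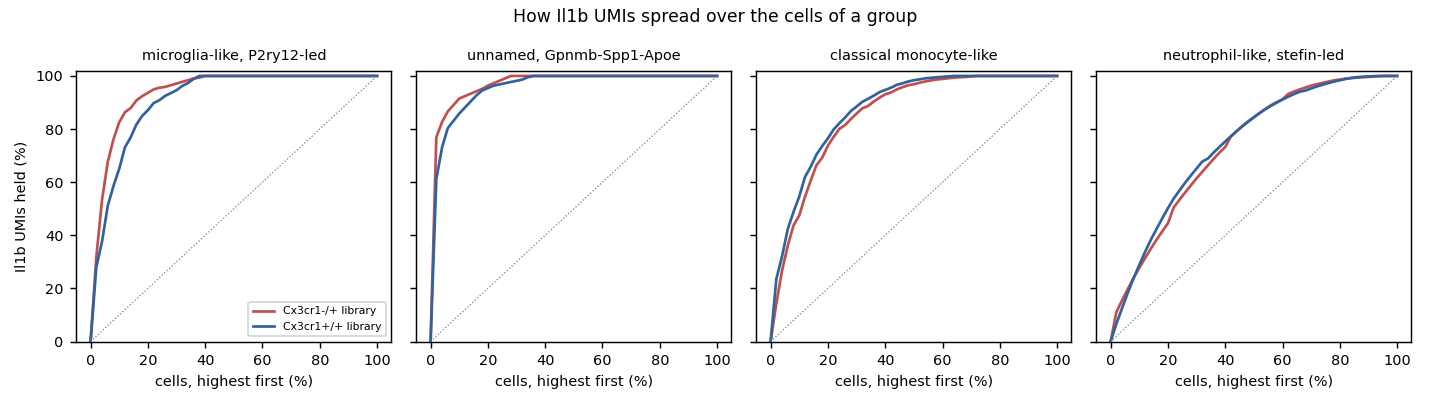
Share of Il1b UMIs held (y axis, percent) by the cells with most of them (x axis, percent of cells, highest first) in 4 groups of cells; red is the Cx3cr1-/+ and blue the Cx3cr1+/+ library, and the dotted diagonal marks an even spread. The curve of the stefin-led cluster rises slowest, its top 10% holding 27.7% and 28.9%, and that of the Gpnmb cluster steepest.

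Within the Camp-led neutrophil-like cluster, detection of Il1b went with that of Nlrp3, Tnf and Ptgs2 in the same thinned cells. Il1b was found in 34 of 44 cells with Nlrp3 and in 87 of 178 without it in the Cx3cr1-/+ library, and in 66 of 80 and 150 of 234 in the other. Over all cells of the cluster the intervals of these shares did not meet in either library. With Ptgs2 the shares were 18 of 21 against 103 of 201, and 41 of 46 against 175 of 268. With Tnf they were 41 of 55 against 80 of 167, and 81 of 98 against 135 of 216. The cluster mixes cells rich and poor in complement C1q transcripts (described next), and the split was made after the data were seen. In cells with C1q under 2000 CPM, Il1b was found in 11 of 14 cells with Nlrp3 against 18 of 71 without in the Cx3cr1-/+ library, and in 21 of 24 against 63 of 114 in the other, again with intervals apart. For Tnf in these cells the intervals were apart in the Cx3cr1+/+ library alone, and for Ptgs2 they met in both. In cells with more C1q they met for all 3 genes in both libraries. At resolution 1 a separate unnamed cluster had Il1b among its leading genes, as given above. The part of such cells in these shares was not tested. Cells of 1 library are not replicates.

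Cells with transcripts of another class touched several of these values. In the Camp-led cluster, 147 of 240 and 188 of 336 cells carried complement C1q transcripts, typical of microglia and macrophages, at 2000 CPM or more, a limit chosen after the data were seen. Those cells read 64.7 and 87.7 CPM of Il1a, against 2.83 and 2.91 CPM in cells with C1q under 500 CPM. Tnf was 210 and 234 CPM against 93.2 and 166 CPM, and Il1b 1127 and 1485 CPM against 583 and 846 CPM. Of the 261 and 448 Il1a UMIs of this cluster, 253 and 434 lay in the C1q-rich cells. Whether those barcodes hold more than 1 cell was not tested. In the stefin-led cluster, Il1b in cells with C1q under 500 CPM was still 5530 and 5734 CPM.

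**Figure D3:**
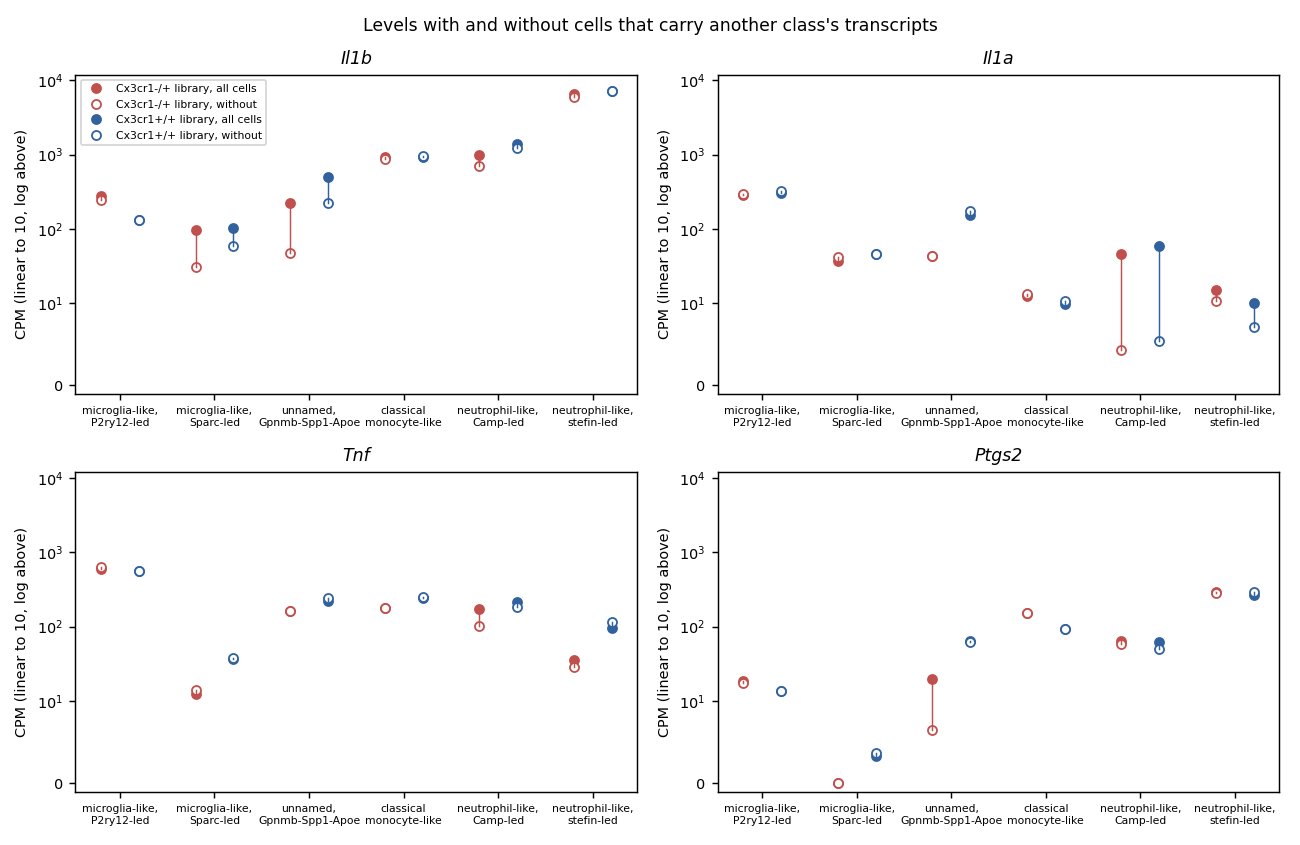
CPM of Il1b, Il1a, Tnf and Ptgs2 (y axis, linear to 10 and logarithmic above) in 6 groups of cells (x axis), for all cells (filled) and without cells carrying another class's transcripts (open): C1q at 2000 CPM or more in neutrophil-like groups, S100a8 and S100a9 at 5000 CPM or more elsewhere. Without these cells Il1a in the Camp-led cluster is at 4.30 and 5.35 CPM, and Il1b in the Gpnmb cluster at 47.7 and 220 CPM.

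Between the libraries, no member passed 1.5-fold over all kept cells, where 10.6% of 12000 genes with at least 50 UMIs did in either direction. Il1b came closest, at 755 and 1023 CPM (log2 ratio of Cx3cr1-/+ over Cx3cr1+/+ -0.44, interval -0.47 to -0.41). This value mixes cell classes whose shares differ between the libraries. Within classes, the calls below use the same rule of 50 UMIs and 1.5-fold.

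In the P2ry12-led microglia-like cluster Il1b and Nlrp3 were higher in the Cx3cr1-/+ library (2 of 7 members measured; 4.35% of 6132 genes were higher). Il1b read 275 against 132 CPM, a log2 ratio of 1.06 (0.80 to 1.33). It kept its call in the 13 alternative settings run on this cluster, none of which clustered the cells anew, with log2 ratios of 0.72 to 2.23. Most Il1b UMIs of this cluster lay in few cells in each library, as the shares given above show. The Il1b ratio therefore rests on few cells, and its interval, which covers counting error only, takes no account of this. The ratio without all of these cells is not given here. Nlrp3 read 198 against 131 CPM (log2 0.60, 0.31 to 0.89), lay just past the threshold and kept its call in 6 of 13. Il1a (-0.11) and Tnf (0.12) were within 1.5-fold. Thinned cells with Il1b were 20.5% and 17.6%, beside none and 12.1% of choroid plexus-like cells, so these shares are not compared between the libraries. Most choroid plexus-like cells carried a barcode listed in both libraries. In cells with Xist and no Y-linked UMIs, Il1b was 279 CPM in 88 Cx3cr1-/+ cells and 59.6 CPM in 84 Cx3cr1+/+ cells. Only 1 Cx3cr1+/+ cell of this cluster held Y-linked UMIs without Xist. Its marks thus ran opposite to those of the whole Cx3cr1+/+ library, where 230 cells held Xist alone and 780 Y-linked UMIs alone. The 29 Cx3cr1+/+ cells with both marks had a median of 20373 UMIs and 216 CPM of Il1b. Without cells rich in S100a8 and S100a9, Il1b was 243 and 131 CPM. Over both microglia-like clusters the same 2 genes were called (Il1b 0.89, Nlrp3 0.59; 4.24% of 6787 genes were higher), and with each library clustered alone Il1b turned to -1.54. In the Sparc-led cluster no member passed, where 8.6% of 2255 genes did, and only Il1b and Pycard had 50 UMIs.

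In the unnamed Gpnmb cluster (161 and 53 cells) 3 of 7 measured members were lower in the Cx3cr1-/+ library, against 6.33% of 4470 genes. Il1a read 43.5 against 155 CPM (log2 -1.83, -2.35 to -1.32), Il1b 220 against 499 CPM (-1.18, -1.43 to -0.93) and Ptgs2 19.4 against 63.8 CPM (-1.72, -2.52 to -0.91). Most of the Il1b came from few cells: 262 of 329 UMIs lay in 8 Cx3cr1-/+ cells rich in S100a8 and S100a9, and 134 of 219 in 4 Cx3cr1+/+ cells. Without them Il1b was 47.7 and 220 CPM, a log2 ratio of -2.20, and Ptgs2 was 6.41 and 62.0 CPM. The Il1a ratio rests on 65 and 68 UMIs and stayed between -2.34 and -1.63 in 13 settings. Of the marked cells, 152 Cx3cr1-/+ cells held Xist alone, and 8 Cx3cr1+/+ cells did, with 2 Il1b UMIs. In those Xist-only cells the Il1b log2 ratio turned to 2.58. Genotype, sex marks and library cannot be told apart in this cluster.

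Ptgs2 was the member called in both monocyte-like classes, in opposite directions. In classical monocyte-like cells it was higher, at 154 against 91.9 CPM (log2 0.75, 0.44 to 1.06), the single call among 7 members against 4.45% of 5685 genes. Without the cell with most Ptgs2 in each library, with a stricter cell filter and at resolution 1 it no longer passed. In patrolling monocyte-like cells it was lower, at 19.6 against 46.6 CPM (-1.25, -1.84 to -0.69), as was Il1a at 8.33 against 16.5 CPM (-0.99, -1.95 to -0.11), against 2.6% of 6929 genes. Most of the Il1a difference lay in the small Tgm3-led cluster (30 and 57 cells), with 6 and 34 UMIs or 12.9 and 58.1 CPM, where C1q read 9233 and 8071 CPM. The Cd300e-led cluster, most of the class, held 8 and 18 Il1a UMIs (log2 ratio -0.091, interval -1.50 to 1.18), with C1q at 462 and 593 CPM. The part of the C1q-carrying cells in the difference was not tested. The Ptgs2 ratio turned to 0.23 when every cell had equal weight, and thinned cells with Ptgs2 were 3.24% and 2.94%. Without cells rich in S100a8 and S100a9, Il1rn in patrolling monocyte-like cells also passed 1.5-fold, at 12.8 against 23.2 CPM (-0.86, -1.64 to -0.14). That ratio rests on 21 and 70 UMIs, and 12 further Cx3cr1-/+ UMIs lay in the 6 cells left out. Nlrp3, Tnf, Pycard and Casp1 stayed within 1.5-fold in both classes.

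Dendritic cell-like cells had higher Il1a, 85.6 against 50.4 CPM (log2 0.77, 0.40 to 1.13; 5.09% of 6660 genes were higher), and lower Ptgs2, 32.1 against 61.1 CPM (-0.93, -1.41 to -0.47; 4.31% lower). This class also carried C1q at 10621 and 7691 CPM and the highest summed markers of border-associated macrophages among the groups (1843 and 1653 CPM), with Lyve1 and Ccl7 among its 10 leading genes. At resolution 1 and when clustered with the members, a separate border-associated macrophage-like cluster appeared, and the part of such cells in the Il1a and Ptgs2 ratios was not tested. The Il1a ratio did not hold when the cells were clustered at a resolution of 0.25 or with the members, where it was -0.0041 and -0.090. In the stefin-led cluster Tnf was lower, 12 against 47 UMIs (-1.42, -2.47 to -0.48), against 10.8% of 1429 genes. Il1b there was within 1.5-fold, with a log2 ratio of -0.15 (-0.23 to -0.08). The Camp-led cluster and the neutrophil-like class as a whole had no member called, where 6.29% of 9225 and 6.02% of 9282 genes were. Without the C1q-rich cells, however, Il1b and Tnf were lower in the 93 and 148 remaining cells of the Camp-led cluster. Il1b read 701 against 1228 CPM (-0.81), and Tnf had a log2 ratio of -0.85. The share of all genes past 1.5-fold in those remaining cells was not computed. In an unnamed cluster with Mki67 and other cell cycle genes in the lead, Il1b, Il1a and Ptgs2 were lower (-1.20, -0.64 and -0.60; 8.89% of 6816 genes). Il1b read 293 against 672 CPM, and without cells rich in S100a8 and S100a9 Il1b and Ptgs2 were 0.16 and 0.12.

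**Figure D4:**
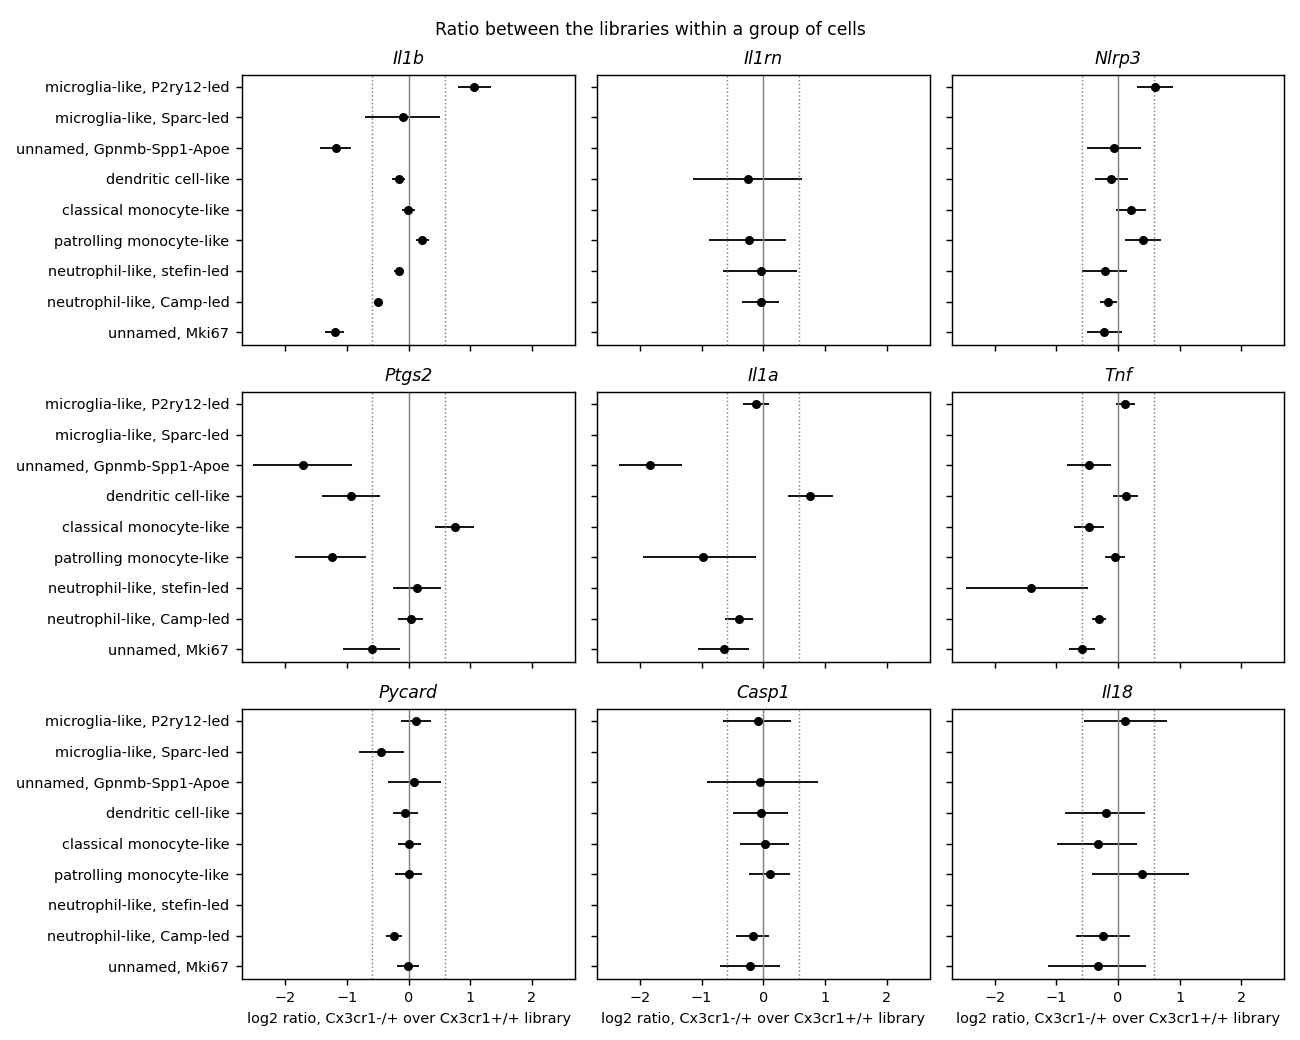
log2 ratio of Cx3cr1-/+ over Cx3cr1+/+ CPM (x axis) in 9 groups of cells (y axis), shown where both libraries together held at least 50 UMIs, with exact 95% intervals for counting error; dotted lines mark 1.5-fold. The points of Pycard, Casp1 and Il18 lie between the dotted lines in every group shown, though several of their intervals reach past them, while points of Il1b, Il1a and Ptgs2 lie beyond both lines.

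Other genes of these pathways were counted by list. In the P2ry12-led cluster no list had more than 1 gene called: of 13 measured genes of interleukin 1 and Toll-like receptor signalling none passed, of 7 pyroptosis and NLRP3 regulators and 7 prostanoid genes none, of 4 other inflammasome sensors Naip6 was lower, and of 6 genes of TNF processing and receptors Traf1 was higher. Of 8 co-induced inflammatory genes Cxcl1 was lower, and of 10 immediate early and heat shock genes Hspa1b was higher. The share of all genes lower in the P2ry12-led cluster is not reported here. The median log2 ratio of the signalling list was 0.01, beside 0.03 over all genes there. In the Gpnmb cluster 4 of 8 co-induced genes were lower (Cxcl2, Ccl4, Cxcl1 and Clec4e), with a list median of -0.56 beside -0.01 over all genes, and 2 of 11 signalling genes were lower (Tnfaip3, Relb). There Casp4 and Gsdmd, of 7 pyroptosis and NLRP3 regulators, were higher, with a list median of -0.05 beside -0.01. Il18bp, which binds interleukin 18, was higher too, the only measured gene of its list. The share of all genes higher in the Gpnmb cluster is not reported here, so these calls have no background beside them. In the Mki67 cluster 4 of 11 co-induced genes and 3 of 7 genes of TNF processing and receptors were lower. So were 2 of 13 signalling genes and 2 of 9 immediate early and heat shock genes. The medians of these lists were -0.47, -0.48, -0.30 and -0.39 beside -0.02 over all genes. S100a8 and S100a9 summed to 6274 and 14395 CPM in the Mki67 cluster and to 3590 and 7854 CPM in the Gpnmb cluster. The lists were not recomputed without cells rich in these transcripts, and the part of such cells was not tested. In the stefin-led cluster Il1r2, the decoy receptor that binds interleukin 1 without signalling, read 777 and 616 CPM, and 3.49 and 7.79 CPM in the P2ry12-led cluster. Il1f9, another interleukin 1 family ligand, read 308 and 293 CPM there and under 5 CPM in the P2ry12-led cluster. Cxcl2, a neutrophil-attracting chemokine, read 13410 and 14035 CPM in the stefin-led cluster. The sensor Aim2 had the opposite order. It held 7 and 8 of the 337133 and 494819 UMIs of the stefin-led cluster. In the larger P2ry12-led one it held 117 and 119 of 1144978 and 1411490.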

How the data were processed

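Single-cell 3′ libraries came from the Chromium v3.1 chemistry. The deposited matrices hold raw UMI counts per gene and cell barcode; the authors used Cell Ranger 4.0 and mm10, per the submitters' processing notes, while the file headers name Cell Ranger 5.0.0. The deposited counts were used as they stand. Barcodes were kept from 500 detected genes upward if mitochondrial UMIs stayed below 10%, then scaled to 10000, and clustered in scanpy 1.11.5 (2000 variable genes, 30 components, 15 neighbours, Leiden resolution 0.5, seed 0) without the 9 genes, the pathway lists, Xist and Y-linked genes. A cluster was named when its 10 leading genes held more markers of that type than of any other and at least 3 of its markers, and no fewer than of any other type, were raised 1.5-fold and found in 10% of its cells; others stay unnamed. The naming rule, the members, the gene lists and the groups described were chosen with earlier results of these data known.

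Counts were summed per cluster and library into CPM with exact Poisson intervals; ratios have exact conditional binomial intervals and shares of cells exact Clopper-Pearson intervals. A called gene had at least 50 UMIs over both libraries and a ratio of 1.5-fold in either direction. All 9 members are named, as are up to 4 genes per list with the most UMIs; other genes of a list are named outside this rule where called, after their values were seen. The limits on C1q and on S100a8 and S100a9 were likewise set after seeing the data. On Poisson counts simulated for 9282 genes from the sums of the neutrophil-like class, 95.9% of intervals held the true ratio. Of 200 genes changed 2-fold, 191 were called, as were 2.17% of the unchanged genes. Such counts meet the assumption of the intervals. The simulation therefore cannot show how the intervals do where most UMIs of a gene lie in few cells. Alternatives covered cell filters, scaling (TMM in edgeR 4.0.16 with R 4.3.3), weighting, thinning, UMI minimum, clustering and subsets of cells.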

Additional observations from a re-analysis of the deposited data

Results flagged for a closer look

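For 3 genes the ratio between the libraries passed 1.5-fold in opposite directions in different groups of cells. These differences between groups were not tested, because there is 1 library per genotype. For Il1a, the log2 ratio of Cx3cr1-/+ over Cx3cr1+/+ was 0.77 in dendritic cell-like cells and -1.83 in the unnamed Gpnmb cluster, 2.60 apart, and the first turned to -0.0041 and -0.090 under other clusterings. For Il1b, it was 1.06 in the P2ry12-led microglia-like cluster and -1.20 in the unnamed Mki67 cluster, 2.26 apart, and the second was 0.16 without cells rich in S100a8 and S100a9. Most Il1b UMIs of the P2ry12-led cluster lay in few cells. For Ptgs2, it was 0.75 in classical monocyte-like cells and -1.72 in the Gpnmb cluster, 2.46 apart, and the first was 0.47 at its lowest over the alternatives, under 1.5-fold.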

How the results depend on the processing

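Of 1288 recomputed log2 ratios of single genes over 18 settings, 1083 stayed within the counting interval, 197 moved outside it and 8 called ratios changed sign. Counts of called members stayed within 1.5-fold in 300 of 379 recomputations and moved in 79. These counts are small, so 1 gene crossing the threshold is enough. The share of all genes called was not recomputed under the alternatives, so the counts below have no background beside them. No paired analysis was possible because each genotype has 1 library. The comparison with doublets left out was not run, because the caller's threshold lay above every score and it could call none.

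With TMM scaling or scaling by the median of ratios, the count of higher members fell from 2 to 1 in microglia-like cells and in the P2ry12-led cluster, where Nlrp3 lies at the threshold. The same fall to 1 in the P2ry12-led cluster came with no cell filter, equal weight per cell, thinning to 2000 UMIs, without shared barcodes and without the highest cell; in the microglia-like class it was 1 without shared barcodes, without the highest cell and when clustered with the members, and 0 with equal weight or thinning. With each library clustered alone, microglia-like counts were 0 higher and 2 lower, and Il1b was -1.54; at resolution 0.25 they were 0 higher and 1 lower.

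In dendritic cell-like cells the higher count was 0 without shared barcodes, thinned, at resolution 0.25, clustered with the members and for Xist-only against Y-only cells, and with libraries clustered alone it was 0 with 2 lower; the lower count was 0 when thinned, at resolutions 0.25 and 1.0 and with a minimum of 200 UMIs. Il1a there was -0.0041 at resolution 0.25 and -0.090 clustered with the members. Classical monocyte-like cells had 0 higher with the stricter filter, at resolution 1.0 and without the highest cell, and 1 lower when thinned or clustered alone. Patrolling monocyte-like cells had 2 higher with equal weight, where Ptgs2 was 0.23, 1 higher and 0 lower when thinned, 0 lower with a minimum of 200 UMIs, and 1 lower at either other resolution.

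The stefin-led cluster had 0 lower with the stricter filter, thinning, a minimum of 200 UMIs or without C1q carriers, and 3 with a minimum of 10 UMIs; without C1q carriers Tnf was -2.03, but from 8 and 33 UMIs, under the minimum. The Camp-led cluster had 1 lower with equal weight and 2 without C1q carriers; the neutrophil-like class had 1 lower with equal weight, thinning, without carriers and without cells of both marks. The Sparc-led cluster had 2 lower with equal weight, 1 lower with a minimum of 10 UMIs and 1 higher with the stricter filter. The Gpnmb cluster had 1 lower with a minimum of 200 UMIs. The Mki67 cluster had 1 lower without shared barcodes, thinned, without carriers, without cells of both marks and for Xist-only against Y-only cells; without carriers Il1b was 0.16 and Ptgs2 0.12.

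For Xist-only Cx3cr1-/+ against Y-only Cx3cr1+/+ cells, counts were 1 higher and 1 lower over all cells and in the neutrophil-like class, 1 higher in the Camp-led cluster, and 4 higher and 1 lower in microglia-like cells, where 13 Cx3cr1+/+ cells remained; the P2ry12-led cluster had 1 such cell and gave no value. With Xist-only cells of both libraries, chosen after the data were seen, counts were 3 higher and 3 lower over all cells, 3 lower in the neutrophil-like class and the Camp-led cluster, 2 higher and 3 lower in dendritic cell-like cells, 0 lower in patrolling monocyte-like cells, 1 higher and 0 lower in the stefin-led cluster, 4 higher and 0 lower in the Gpnmb cluster (Il1b 2.58, from 8 Cx3cr1+/+ cells) and 1 higher in the Mki67 cluster (Ptgs2 0.83). Xist-only Cx3cr1+/+ cells numbered 41 in the neutrophil-like class, 39 of them in the Camp-led cluster, and 25 among dendritic cell-like cells. There were 15 in the Mki67 cluster, 14 among patrolling monocyte-like cells and 2 in the stefin-led cluster. The cause of these changes was not tested. Shares of cells moved outside their intervals in 145 of 180 values without thinning and in 100 of 180 when thinned to 1000 UMIs. Genes under 50 UMIs in a group, such as Il1rn in microglia-like cells and Pycard in the stefin-led cluster, had no call there. The highest class of a gene also moved with the clustering. At resolution 0.25 Tnf was highest in patrolling monocyte-like cells of the Cx3cr1-/+ library. Nlrp3 was then highest in neutrophil-like cells of the Cx3cr1+/+ library, and Ptgs2 in those of the Cx3cr1-/+ library. Clustered with the members, Il1rn was highest in border-associated macrophage-like cells of the Cx3cr1-/+ library.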
